A study of Mus musculus with 4 samples.

Results

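The 10 genes described here are transcripts that fat cells are known for, measured in whole mouse kidney: the secreted products Adipoq (adiponectin), Retn (resistin), Lep (leptin) and Cfd (adipsin), the lipid droplet genes Cidec and Plin1, and Thrsp, Car3, Mrap and Adig. They were taken by gene name from the non-control spots of 4 Agilent arrays, which gave 13 probes and 22 spots of 55681 probes and 59305 spots in all. All 10 were among the 25297 genes that passed the filter on dim probes. The genes were chosen with their difference between the groups already known, so that difference is given below as a description and carries no test.

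Total kidney RNA came from female BALB/C mice, 6 weeks old when the experiment began, with 2 control and 2 membranous nephropathy (MN) samples on 1 array each. Membranous nephropathy is a disease of the glomerular filter in which immune complexes collect beneath the podocytes. Every mouse, controls included, had been immunized with 0.2 mg of cationic bovine serum albumin (cBSA), an antigen given in complete Freund's adjuvant. Starting 2 weeks later, the MN mice were injected intravenously with cBSA at 13 mg/kg, 3 times a week for 6 weeks, and the control mice received vehicle (saline in one label field and PBS in another) on that schedule. The groups thus differ in the repeated injections of antigen. The labels do not state whether each sample was a separate animal, so the spread between 2 samples of a group may be technical. Array 1 of each group lay on slide 1 and array 2 on slide 2.

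White adipocytes store triglyceride in a large lipid droplet and secrete hormones that report on energy stores. Adiponectin raises insulin sensitivity, leptin restrains appetite, and resistin is an adipocyte hormone of rodents. The droplet surface carries perilipin 1, which guards the fat against lipases, and CIDEC, which lets droplets fuse and grow. The kidney is wrapped in perirenal fat. In whole-tissue RNA, more cells of a type and more transcript per cell cannot be told apart.

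Across the 10 genes the difference ran from near 0 to more than 6 on the log2 scale. The secreted products Adipoq, Retn and Cfd and the enzyme gene Car3 were far higher in MN, Cidec and Mrap were higher by 2-fold or more, Thrsp, Adig and Plin1 by less than 2-fold, and Lep overlapped between the groups. Signals are given as a percentage of the array's own 75th percentile signal, which sets the arrays on a common scale for 1 probe but does not allow levels of different probes to be compared. Both MN arrays lay above both control arrays for 9 of the 10 genes, against 13.2% of all genes tested, and 6 of those differed by 2-fold or more in the mean, against 1.0% of all genes. The genes were picked on this contrast, so nothing is read from these shares. Adipoq, Retn, Cfd and Lep passed the filter only through the MN arrays: neither control array detected Adipoq or Retn well above background, and 1 of 2 did for Cfd and Lep.

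**Figure D1:**
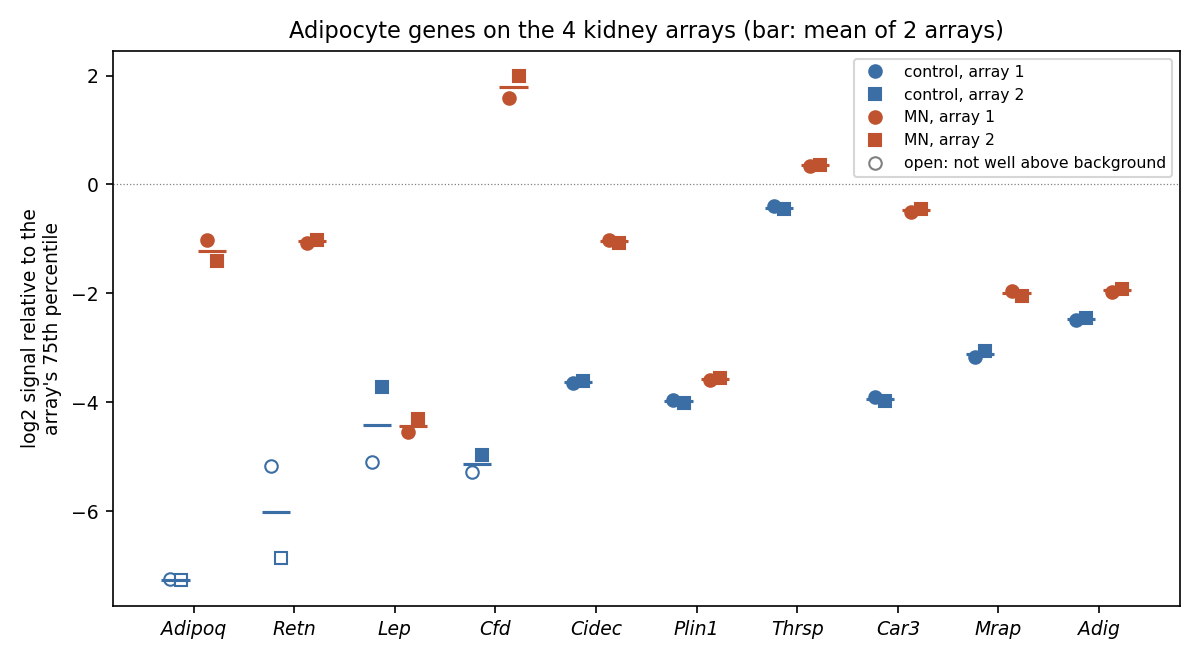
Log2 signal of the 10 genes relative to each array's 75th percentile (vertical axis), with control arrays in blue and MN arrays in orange, circles for slide 1, squares for slide 2, bars for the mean of 2 arrays and open symbols for spots not well above background. Cfd had a mean of -5.13 in control and 1.79 in MN, while the arrays of Lep overlapped and Plin1 differed by 0.40.

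To show the genomic context of genes that behaved differently, the 250 bases before the transcription start are printed for the 3 genes with the largest measured differences (Adipoq, Retn, Cfd) and for the 2 with the smallest (Lep, Plin1). They are RefSeq sequences on GRCm38.p6, 5′ to 3′ on the gene's strand. The table used holds windows for 8 of the 10 genes (9 windows, Cidec having 2 starts). Capitals mark matches on either strand to the short motifs AGGTCA (a nuclear receptor half-site), TTGCNNAA (the type bound by C/EBP factors), CCAAT (the CCAAT box), TATAAA (the TATA box) and GGGCGG (the GC box).
Adipoq, chr16:23146286-23146535, plus strand: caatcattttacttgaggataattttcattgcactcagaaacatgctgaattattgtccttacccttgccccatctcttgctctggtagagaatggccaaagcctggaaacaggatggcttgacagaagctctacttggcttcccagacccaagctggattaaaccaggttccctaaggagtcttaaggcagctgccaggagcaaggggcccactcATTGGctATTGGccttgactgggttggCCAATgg
Retn, chr8:3655520-3655769, plus strand: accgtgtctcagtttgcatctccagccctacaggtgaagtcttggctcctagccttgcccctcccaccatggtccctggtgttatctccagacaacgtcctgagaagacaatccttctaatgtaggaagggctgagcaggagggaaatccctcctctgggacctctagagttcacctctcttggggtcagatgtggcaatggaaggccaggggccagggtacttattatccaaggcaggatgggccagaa
Cfd, chr10:79890603-79890852, plus strand: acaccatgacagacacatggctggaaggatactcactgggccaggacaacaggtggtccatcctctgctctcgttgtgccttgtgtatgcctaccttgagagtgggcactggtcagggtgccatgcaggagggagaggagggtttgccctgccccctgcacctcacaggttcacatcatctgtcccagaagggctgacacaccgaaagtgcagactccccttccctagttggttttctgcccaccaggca
Lep, chr6:29059971-29060220, plus strand: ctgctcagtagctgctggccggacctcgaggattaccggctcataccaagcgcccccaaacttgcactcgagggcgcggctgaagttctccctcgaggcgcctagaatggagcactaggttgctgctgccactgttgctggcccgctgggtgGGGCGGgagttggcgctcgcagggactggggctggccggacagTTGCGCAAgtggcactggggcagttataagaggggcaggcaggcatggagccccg
Plin1, chr7:79732777-79733026, minus strand: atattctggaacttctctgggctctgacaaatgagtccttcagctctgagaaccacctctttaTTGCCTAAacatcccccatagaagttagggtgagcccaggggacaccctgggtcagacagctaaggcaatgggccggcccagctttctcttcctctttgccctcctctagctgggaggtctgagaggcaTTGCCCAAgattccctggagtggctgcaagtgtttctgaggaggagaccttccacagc
The Adipoq window held CCAAT at 3 places within the last 34 bases, and those of Retn and Cfd held none of the 5 motifs. A TTGCNNAA match lay 55 bases before the start in Lep, and Plin1 held the motif at 187 and 58 bases before the start. Among the 9 windows, 3 held TTGCNNAA (Lep, Plin1 and 1 of the 2 Cidec windows), as did 9.56% of the 32851 windows of all genes. CCAAT was in 2 of the 9 (Adipoq and Thrsp) against 33.8% of all windows, and AGGTCA in 1 (Adig) against 14.02%. TATAAA was in 0 of the 9 windows (12.4% of all) and GGGCGG in 1, that of Lep (32.7%). These are matches of letters and not measured binding sites.

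Of the hormones, Adipoq lay at background in control and gave a clear signal in MN. Its probe (mm9 chromosome 16, 23157576 to 23157635, starting at base 766 of the transcript) read 0.661% and 0.646% in control and 49.1% and 37.7% in MN. The control spots were not well above background, and on control array 1 the scanner software had put a surrogate value in place of the signal. Set against the dimmest signal that counted as detected on each control array, Adipoq was 20.6-fold higher in MN. This is not a strict lower bound. On control array 1 the dimmest detected signal was -5.11 (log2), and Lep, at -5.09, did not count as detected. Normexp background correction adds an offset that pulls dim values together, and with it the difference was 5.58-fold.

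Retn behaved alike, and its 2 probes gave similar values. The probe at base 520 (chromosome 8, 3659757 to 3659816) read 2.77% and 0.860% in control and 47.7% and 49.6% in MN. The probe at base 354 (3657312 to 3657371) read 0.625% and 1.11% against 31.6% and 42.3%. Neither probe was well above background on any control array, both were on both MN arrays, and the groups did not overlap. Set against the dimmest detected signal of the control arrays, the first probe was 23.2-fold higher in MN and the second 17.5-fold. Normexp gave 5.38-fold and 4.96-fold.

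Lep, the other classical adipocyte hormone, did not share this pattern. Its probe (chromosome 6, 29023234 to 29023293, base 2614) is printed 10 times on each array, which measures the technical error within an array. The mean over spots was 2.93% and 7.55% in control and 4.27% and 5.05% in MN, so both MN arrays lay between the control arrays. On the log2 scale the mean ± SD over spots was -5.09 ± 0.68 on control array 1, where 5 of 10 spots were well above background, and -3.73 ± 0.19 on control array 2, with 10 of 10. It was -4.55 ± 0.18 over 8 spots and -4.31 ± 0.23 over 9 in MN, after spots marked as outliers were left out. The log2 difference was -0.02 ± 0.51 (SE, n = 2 a group), or 0.54 on slide 1 and -0.58 on slide 2. It was -0.70 without control array 1 and 0.66 without control array 2. The SE of a difference, here and below, is limma's moderated SE. It shares variance across all genes and is not the spread of this gene's samples alone. A difference of Lep smaller than the gap between the control arrays was not detectable with these 2 samples a group.

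**Figure D2:**
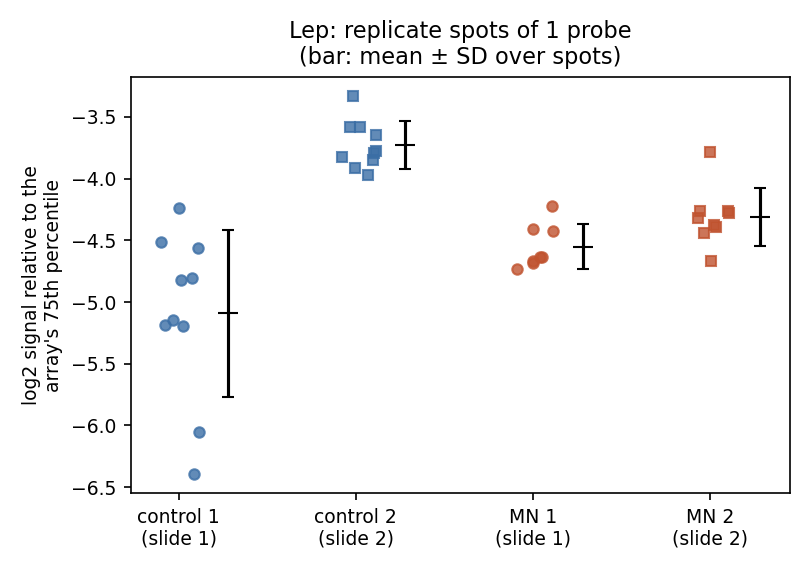
Log2 signal of the replicate spots of the Lep probe relative to the array's 75th percentile (vertical axis) on each array (horizontal axis), with the mean ± SD over spots in black. The control arrays, at means of -5.09 and -3.73, lie on either side of the MN arrays at -4.55 and -4.31.

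Cfd encodes adipsin, the serine protease that cuts factor B in the alternative complement pathway and that fat cells secrete in quantity. Its measured difference was the highest of the 10, but the order among Cfd, Adipoq and Retn is not settled, since control signals of all 3 lay near background. Its probe (chromosome 10, 79355302 to 79355361, base 823) read 2.56% and 3.17% in control and 302% and 398% in MN. Of the control spots, 1 of 2 was well above background, that of slide 2, and within that slide the log2 difference was 6.97. The mean levels were -5.13 ± 0.22 in control and 1.79 ± 0.28 in MN (log2, SD, n = 2). The fold was 122 on the processed signal and 33.9 with normexp. Both rest in part on the control spot of slide 1, which was not well above background. Probes of the proteins that act with adipsin did not show a comparable difference. Of 8 tested genes of the alternative pathway and its receptors, 0 passed in limma (adjusted p of 0.942 or more, and 0 at an unadjusted p under 0.05 in either direction), with C3 at -0.30 ± 0.18 and Cfb, the substrate of adipsin, at 0.08 (log2). The 8 had a median of 0.08, against -0.05 over all genes tested.

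The droplet genes split, and so did the probes of 1 of them. The Cidec probe at base 1642 read 7.96% and 8.15% in control and 49.3% and 47.5% in MN. Its log2 difference was 2.59 ± 0.13 (moderated SE, n = 2 a group), with 2.63 and 2.54 on the slides and 1.71 with normexp. The Cidec probe at base 552 read 4.68% and 8.22% against 6.96% and 7.99%, and the groups overlapped. Its difference was 0.27, or 0.57 and -0.04 on the slides, and -0.01 with normexp. All 4 arrays were well above background for both probes. The probes lie on the minus strand of mm9 chromosome 6, the one at base 1642 at 113374630 to 113374689 and the one at base 552 at 113378116 to 113378175, and the first 30 of their 60 bases are printed because they gave different answers for the same gene.
Cidec probe at base 552: tctatgacacatactcgctttcctatgacc
Cidec probe at base 1642: tttttccacgaatgagtgaatggtattaga
The difference of Cidec therefore rests on 1 of its 2 probes, the one nearer the 3′ end of the transcript. Plin1, whose protein coats the droplet of mature fat cells, read 6.46% and 6.22% in control and 8.24% and 8.51% in MN (chromosome 7, 86866112 to 86866171, base 1794). The groups did not overlap, but the log2 difference of 0.40 ± 0.13 (SE) was small beside that of Cfd or Adipoq and was 0.11 with normexp.

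Thrsp and Car3 are abundant transcripts of adipocyte metabolism. Thrsp, a regulator of fatty acid synthesis that responds to thyroid hormone, read 75.7% and 72.7% in control and 127% and 128% in MN (chromosome 7, 104561649 to 104561708). Its difference was 0.78 ± 0.13 (log2, SE), with 0.75 and 0.81 on the slides and 0.77 with normexp. Car3, a carbonic anhydrase abundant in fat and muscle cytosol, read 6.71% and 6.34% in control and 70.3% and 73.4% in MN (chromosome 3, 14871781 to 14871840). Its log2 difference was 3.46 ± 0.14 (SE), with 3.39 and 3.53 on the slides and 2.29 with normexp. All 4 arrays were well above background for both genes. Of 12 other carbonic anhydrase genes tested, none passed in limma (lowest adjusted p = 0.536), 1 was higher at an unadjusted p under 0.05 and 0 were lower. That one was Car9, at 0.54 ± 0.14. The median of the 12 was -0.06, or -0.01 with quantile normalization, and Car2, the main cytosolic form of the collecting duct, was at -0.07.

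Mrap and Adig encode small membrane proteins that appear as fat cells mature. Mrap carries the ACTH receptor to the cell surface and is also known from the adrenal gland. Its probe (chromosome 16, 90749858 to 90749917) read 11.1% and 12.0% in control and 25.7% and 24.2% in MN, a log2 difference of 1.11 ± 0.14 (SE) that was 0.77 with normexp. Adig, adipogenin, had 2 probes. The probe at base 572 (chromosome 2, 158333875 to 158333934) read 17.8% and 18.2% in control and 25.6% and 26.5% in MN, a difference of 0.53 ± 0.13 (SE), and 0.37 with normexp. The probe at base 197 read 5.18% and 19.5% in control and 16.6% and 11.7% in MN. There the groups overlapped and the slides went opposite ways, by 1.68 and -0.74. The differences of all 13 probes, by slide and by background correction, are drawn together in the plot of probe differences.

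**Figure D3:**
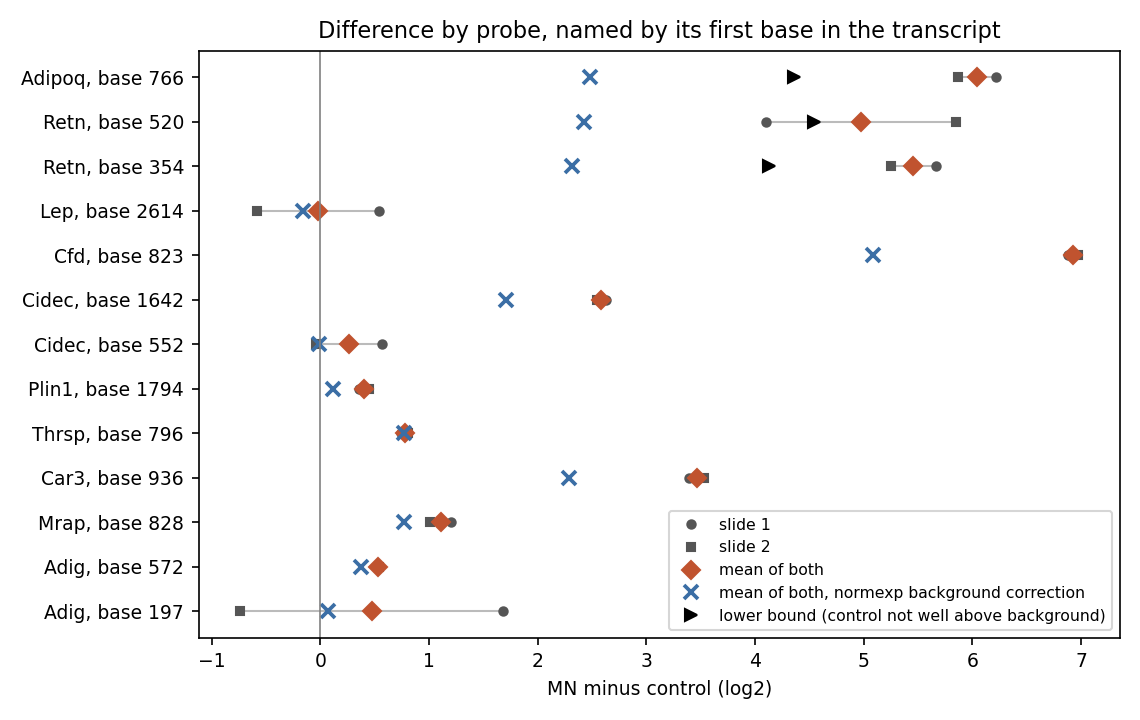
MN minus control on the log2 scale (horizontal axis) for each of the 13 probes (rows, named by gene and first base in the transcript). Diamonds are means, circles and squares the 2 slides, and crosses the mean after normexp background correction. Triangles, labelled lower bound, set probes not well above background in control against the dimmest detected control signal, which is not a strict bound. The Cidec probes sit at 2.59 and 0.27, and the slides differ in sign for Lep, for the Adig probe at base 197 and for the Cidec probe at base 552.

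The other genes of the cell type were examined with limma over all 25297 genes, which called 5 genes in all (0.0198%). Those calls were lost with the slide as a replicate block (0 called; by the unadjusted p, under 0.05, 1587 higher and 2285 lower). Across 15 lists of related genes and of other tissues, 190 different genes were tested and 0 passed, with or without that block. Without the block, at an unadjusted p under 0.05 (limma), 17 of the 190 were higher and 7 lower, beside 3.54% and 3.49% of all genes. The share higher lay above that of all genes and the share lower near it. Higher by 2-fold without overlap were 2 of 26 white adipocyte, 2 of 16 adipokine and 4 of 12 liver genes, and 0 on the other lists. Over all genes it was 1.0%. The lists were chosen with earlier results of these data known, so nothing is read from these shares. Some genes stand on more than 1 list, and kidney cells express many of them.

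Other genes of white fat cells lay on both sides of 0, and 0 were called. Of 30 other white adipocyte genes 26 were tested, with 11 positive and 15 negative values and a median of -0.07 (slide 1 -0.03, slide 2 -0.08). Fabp4, the adipocyte fatty acid carrier that capillary endothelium also makes, was at -0.10 ± 0.15 (SE). Pparg, the nuclear receptor that directs fat cell formation, was at 0.02 ± 0.14, Cebpa at -0.45 ± 0.20, Lpl at -0.12 ± 0.15, the lipase gene Lipe at -0.26 ± 0.14 and the insulin-responsive glucose transporter gene Slc2a4 at 0.03 ± 0.13. The genes of the list furthest from 0 were Rbp4, which carries retinol in blood (2.03 ± 0.18), Sfrp5, a secreted WNT inhibitor (1.23 ± 0.18), Mest (0.91, with -0.39 as the lowest of its 3 probes) and the FGF21 co-receptor gene Klb (-0.84). Rbp4 read -3.24 and -2.89 in control and -1.03 and -1.04 in MN (log2), without overlap, and its adjusted p was 0.183 (limma, 0.0787 to 0.826 over the alternatives). Sfrp5 had an adjusted p of 0.346 and was at 0.81 with normexp. At an unadjusted p under 0.05, 3 of the 26 were higher and 1 lower.

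Droplet, lipolysis and lipid synthesis genes ran from -0.62 to 0.66, and 0 were called. The 20 other droplet and lipolysis genes had a median of -0.08, with 4 positive and 16 negative values. None passed in limma (lowest adjusted p = 0.599), and at an unadjusted p under 0.05 0 were higher and 1, Plin5, was lower. Plin5, the droplet coat of oxidative tissues, was at -0.62 ± 0.18, Acsl1 at -0.42, and Fitm2 at -0.27. The relatives of Cidec were at -0.16 (Cidea) and -0.05 (Cideb), the general coat gene Plin2 at -0.05, and Pnpla2, the first lipase of stored fat, at -0.11. Of 19 fatty acid and triglyceride synthesis genes the median was -0.05 (0.0002 with quantile normalization), with Scd2 at 0.66 ± 0.15, Srebf1 at 0.55, Fasn at 0.37 and Fads1 at -0.30. Here 0 passed in limma (lowest adjusted p = 0.471), 1 was higher and 0 lower by the unadjusted p (under 0.05). Thrsp, listed above, differed by 0.78 beside these.

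Of the brown fat genes, 0 were called. Ucp1, the thermogenic uncoupler that defines brown adipocytes, and Elovl3 were not well above background on any of the 4 arrays, and Dio2 on 1 of them. Of 16 brown adipocyte genes 12 were tested, with a median of -0.12 (slide 1 -0.02, slide 2 -0.07), Cox8b at 0.74 ± 0.14, Otop1 at -0.77, Plin5 at -0.62 and Slc36a2 at 0.48. None passed in limma (lowest adjusted p = 0.423), with 1 higher and 1 lower by the unadjusted p. Adipocyte precursor genes had a median of 0.06 over 14 tested. Among them Pi16 was at 0.87 ± 0.18, Dpp4 at 0.43 and Pdgfra at 0.40. Dlk1, a protein shed by preadipocytes, was at 0.75 (0.20 with normexp), with 0.17 as the lower of its 2 probes. The precursor genes lacked a call too (lowest adjusted p = 0.439 in limma), while by the unadjusted p (under 0.05) 3 were higher and 0 lower.

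Of the other adipokines and the resistin relatives, 0 were called. Retnla, a resistin-like protein of fat and alternatively activated macrophages, read -2.89 and -3.09 in control and -1.10 and -1.26 in MN, a difference of 1.81 ± 0.16 (SE; 1.22 with normexp; adjusted p = 0.175, 0.138 to 0.828 over the alternatives). Retnlg was at 0.50, and Retnlb was not well above background on any array. Angptl4, which blocks lipoprotein lipase, had a value of -0.84 ± 0.16 and Rarres2, chemerin, at 0.43 ± 0.14. Over the 16 tested other adipokine genes the median was 0.15, and none passed in limma (lowest adjusted p = 0.175), with 3 higher and 1 lower by the unadjusted p.

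The receptors for these hormones gave no call. Adipor1 and Adipor2, the adiponectin receptors, were at -0.02 ± 0.15 and -0.13 ± 0.15, and Cdh13, which binds adiponectin at the endothelium, at -0.35 ± 0.14. The leptin receptor gene Lepr was at -0.06 ± 0.69, with the slides well apart (0.42 and 0.66 on slide 1 against 2.03 and 1.67 on slide 2, log2 level, control first). Mc3r, a melanocortin receptor, was at -0.81 ± 0.83, and Tlr4 at 0.27. Of 14 receptor and signalling genes 11 were tested, 0 passed in limma (lowest adjusted p = 0.777), and 0 were higher or lower at an unadjusted p under 0.05. The partner of Mrap in the adrenal gland, Mc2r, was well above background on 1 of the 4 arrays.

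**Figure D4:**
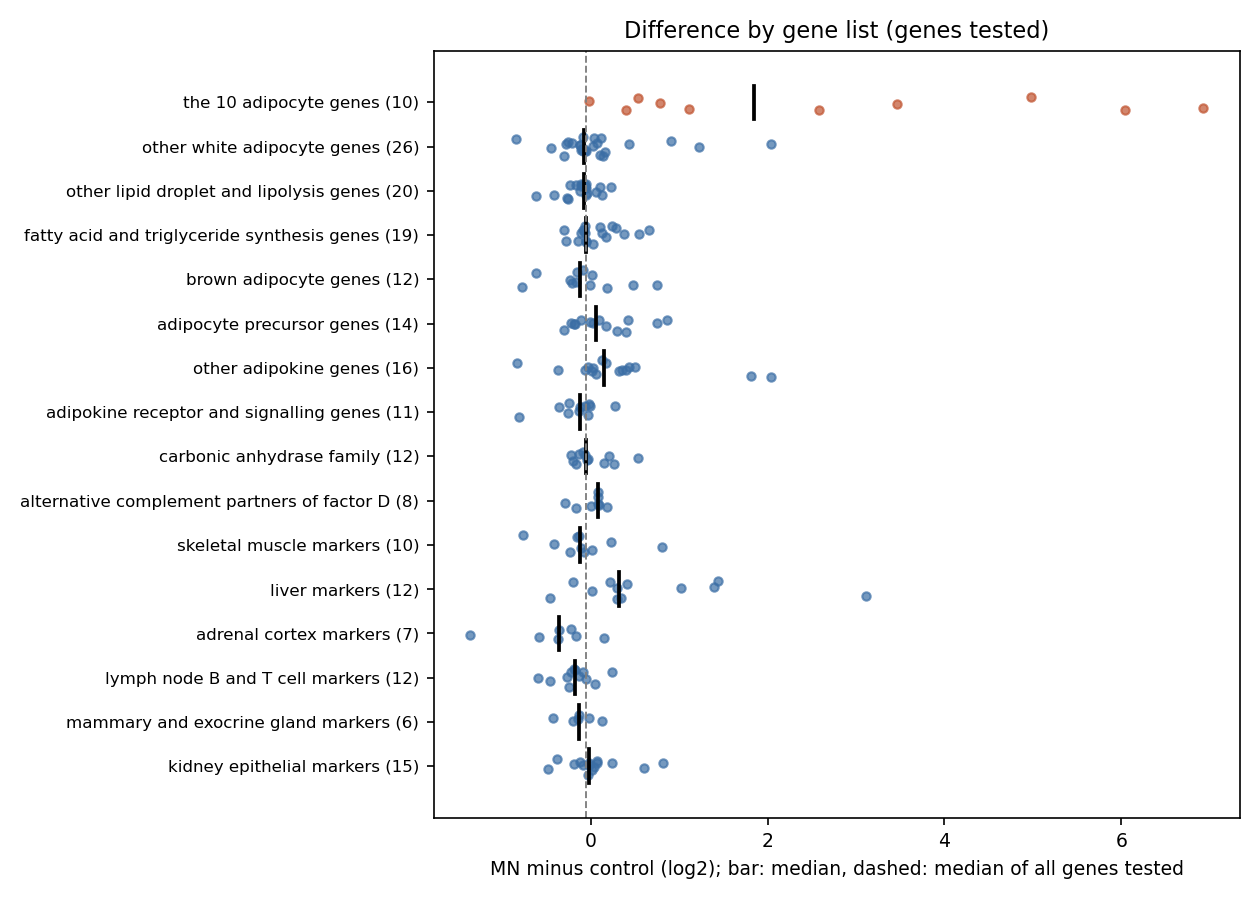
MN minus control on the log2 scale (horizontal axis) for the tested genes of each list (1 point a gene, number tested in brackets), with a black bar at the list's median and a dashed line at the median of all genes tested. The 10 adipocyte genes, shown as a description, spread from -0.02 to 6.93, while the medians of the other lists lie between -0.36 and 0.32.

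Markers of other tissues that a kidney sample may carry were set beside these values. Skeletal muscle, which also makes Car3, had a median of -0.12 over 10 tested markers, with 3 positive and 7 negative values. Furthest from 0 were Tnnc2 at 0.80 ± 0.87 (0.13 on slide 1 and 1.48 on slide 2) and Ryr1 at -0.77 ± 0.36. Myh4 was not well above background on any array, and Acta1 and Ckm were well above it on 1 array each. Of 14 liver markers 12 were tested, with 10 positive values and a median of 0.32. Their summed signal was 33.9 and 35.9 times the 75th percentile in control and 48.3 and 53.6 times in MN. The brightest probes weigh most in this sum, in MN those of Serpina1a and Ttr. The log2 level of Serpina1a was 3.83 and 3.65 in control and 4.22 and 4.10 in MN. For Ttr it was 2.28 and 2.61 in control and 3.63 and 4.05 in MN. Ahsg was at 3.11 ± 0.25 (SE; 1.56 with normexp; detected in 1 of 2 control samples; adjusted p = 0.158, 0.0401 to 0.727 over the alternatives), Fgb at 1.44, Ttr at 1.40 and Alb at 1.02. None passed in limma, and by the unadjusted p (under 0.05) 4 were higher and 0 lower. Adrenal cortex markers had a median of -0.36 over 7 tested (0 higher and 2 lower by the unadjusted p), with Hsd3b1 at background in both MN samples, and their summed signal, nearly all of it from Fdx1, was 41.2 and 52.1 times the 75th percentile in control against 38.9 and 43.7 times in MN. Lymphocyte markers had a median of -0.18 over 12 tested. Of 10 mammary and exocrine gland markers 6 were tested, with a median of -0.14. Among the milk protein genes, Csn1s1 and Csn2 were not well above background on any array. Csn3 and Lalba were well above it on all 4 arrays, and Wap on all but MN array 2. The part of other tissues in the differences of the adipocyte genes was not tested. The label of the tissue held: all 15 kidney epithelial markers were measured, with a median of -0.02, and Umod, Slc34a1 and Slc12a3 were at 0.07, -0.02 and -0.04.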

How the data were processed

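Total kidney RNA was labelled with Cy3 and hybridized to 1-colour Agilent mouse arrays, per the labels' protocols. The deposited scanner files hold spot intensity; per the file headers Feature Extraction 10.5.1.1 subtracted background, removed trends and set surrogate values at background (6.91% to 20.0% of spots). Spots well above background made up 63.1% to 79.5% of non-control spots, 79.5% being control array 2, and 0 were saturated; the number of arrays limits the precision. The deposited log2 value table was used only as an alternative: how it was made is not stated in the labels, and it matched the values used here minus the control mean, with replicates 1 and 2 exchanged in both groups (column medians -0.04 to 0.03). Which order is right is unknown.

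Each array's 75th percentile was subtracted from the log2 processed signal, averaged over spots not marked as outliers. A gene was tested if both arrays of a group detected a probe well above background, and its probe with the highest mean stood for it. Names came from a RefSeq table of GRCm38.p6 by accession (28020 probes), symbol (3423) or synonym (295), otherwise from the file (23943); per the file headers, mm9 is the build of the probe positions. limma 3.58.1 in R 4.3.3 (lmFit, eBayes, two-sided, Benjamini-Hochberg, threshold 0.05) was fitted without a block. Its code was run on simulated data with errors independent between arrays, which does not cover errors shared by the arrays of a slide. Every SE of a difference is the moderated SE of the fit without a block. Folds against the dimmest detected signal set the MN mean against, per control array, the probe's own signal or that dimmest signal, whichever was higher. They are not strict lower bounds, since some signals above the dimmest detected one were not detected. Figures used Python 3.11.15 and matplotlib 3.10.9. The members and gene lists were chosen with earlier results of these data known. Genes named from a list were those with the largest absolute differences, up to 4, plus Fabp4, Pparg, Cebpa, Lpl, Lipe, Pnpla2, Ucp1 and Cidea; others were named after their values were seen. Same-numbered arrays share a slide, per the file headers, and their deviations from the group means correlated at 0.61 across genes. The alternatives were background correction, scaling, filters, probe rules, the variance model, the slide block and each array left out; the other probe of a gene was added after seeing the data.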

Additional observations from a re-analysis of the deposited data

How the results depend on the processing

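The number of genes called over all 25297 moved with the processing, from 5 to 15 with normexp background correction, 17 with quantile normalization, 11 when arrays were scaled to the median of detected probes and 16 with a trended and robust variance. It was 0 with the replicate block (limma; by the unadjusted p, under 0.05, 1587 higher and 2285 lower), 0 with no filter on dim probes (795 and 1010), 0 when probes had to be well above background on all 4 arrays (861 and 667), and 0 to 0 with each array left out in turn (443 to 870 higher and 468 to 960 lower). With the block, 0 of the 190 list genes passed; with quantile normalization 1 did, Ahsg. Members higher by 2-fold without overlap numbered 6, and 3 with the filter on all 4 arrays, because only 6 of the 10 then stayed in the table; the other settings gave 5 or 6, and leaving out an array gave 6 to 6. The median of the other white adipocyte genes was -0.0012 with quantile normalization, and -0.11 to 0.0067 with an array left out. No member with groups that did not overlap changed sign in the mean when 1 choice was altered, the other probe included; both together, the other Cidec probe with normexp, gave -0.01. Adipoq ran from 2.48 to 6.23, Cfd from 5.08 to 7.12 and Retn from 2.43 to 5.82, the low end being normexp in each, while Thrsp stayed between 0.75 and 0.81. Control signals of Adipoq, Retn and Cfd lay near background, which limits the size of their differences.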
